A study of Mus musculus with 6 samples.

Results

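The genes described here encode the machinery of cell division, namely mitotic cyclins and kinases, spindle checkpoint proteins, the chromosomal passenger complex, centromere and kinetochore proteins, mitotic kinesins, and proteins of spindle assembly and cytokinesis. They were chosen by name from a fixed list of 40 symbols, of which 38 were among the 16387 genes named in the expression table, and Mki67 and Ccnb1 were not analysed here. Transcript levels were measured on 6 Affymetrix arrays of total RNA from RAW264.7, a mouse macrophage line transformed by Abelson leukaemia virus. Of these, 3 arrays came from clone 3, transfected with the empty expression vector, and 3 from clone 8, transfected with the same vector carrying a recombinant Ms4a8a cDNA. Both clones had gone through lipofection and blasticidin selection in parallel, and both were kept for 48 h in medium with 10% fetal calf serum before RNA was taken. Each arm was a single clone, so the transgene and the clone could not be told apart. The vector belongs to the pEF6 series, in which a constitutive elongation factor promoter drives the insert. The design text calls the cDNA Ms4a8a, but in 1 place gives the recombinant gene of the selected clone as Ms4a4a. Ms4a8a itself read 3.07, 3.32 and 3.22 on arrays 1, 2 and 3 of the vector clone, whereas clone 8 read 7.40, 7.90 and 8.15, in the order the clone labels predict.

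Cells enter mitosis when Cdk1 with its cyclins becomes active, and they leave it when the anaphase-promoting complex, switched on by Cdc20, destroys cyclin B and securin. Between these steps the kinetochores attach chromosomes to the spindle while the checkpoint kinases hold Cdc20 back, and the passenger complex corrects faulty attachments and later guides cytokinesis. Transcripts of these genes accumulate in G2 and mitosis of proliferating cells and are low in resting cells. Their promoters are known for CCAAT boxes, bound by NF-Y, and for the cell cycle genes homology region, bound by complexes of MuvB with B-Myb or with repressive pocket proteins, while FoxM1 joins the activating form.

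Promoter windows of RefSeq, assembly GRCm38.p6, were found for 30 of the 38 genes and ran from 250 bases before to 50 bases after the annotated start. The homology region was searched as TTTGAA or TTCGAA and the CCAAT box as CCAAT, on both strands. A homology region match was found in 23 of the 30 genes (76.7%), against 21.7% of the 27025 genes with a window and 17.3% of the 13080 of them on the array. At least 1 CCAAT match was found in 22 (73.3%, against 41.1% and 42.0%), and 2 or more in 16 (53.3%, against 13.3% and 14.8%). Both elements occurred together in 20 genes (66.7%, against 8.61% and 6.96%). The E2F letters GCGGGAA were found in none of the 30 windows and in 8.10% of the genes on the array, which says only that these letters are not in those windows. In the last 150 bases of the windows, 19 of 30 genes held both elements (63.3%, against 2.40% and 2.06%). These counts describe the sequences, and no factor's binding was measured.

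The windows of Ttk, Plk1, Aurka and Kif11 are shown because, of the genes found to hold both elements, these 4 had the largest mean differences on array 3, described below. Of the genes with windows, Nuf2, Ndc80 and Birc5 had larger mean differences than Ttk, and of these Nuf2 and Birc5 held neither element and Ndc80 a homology region match without CCAAT. Capitals mark the homology region and CCAAT matches on either strand (the reverse strand reads TTCAAA and ATTGG), and no matches overlapped in these windows. They lie in GRCm38.p6 at the regions Ttk at chr9:83834439-83834738, plus strand, Plk1 at chr7:122159185-122159484, plus strand, Aurka at chr2:172370521-172370820, minus strand, and Kif11 at chr19:37376132-37376431, plus strand, and are written 5′ to 3′ along the gene.
Ttk: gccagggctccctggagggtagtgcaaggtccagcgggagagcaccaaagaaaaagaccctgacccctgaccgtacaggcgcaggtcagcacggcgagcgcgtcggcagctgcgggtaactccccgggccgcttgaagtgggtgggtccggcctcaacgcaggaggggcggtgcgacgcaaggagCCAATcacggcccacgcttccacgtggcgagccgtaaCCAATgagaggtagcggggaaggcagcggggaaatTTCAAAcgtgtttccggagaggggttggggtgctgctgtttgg
Plk1: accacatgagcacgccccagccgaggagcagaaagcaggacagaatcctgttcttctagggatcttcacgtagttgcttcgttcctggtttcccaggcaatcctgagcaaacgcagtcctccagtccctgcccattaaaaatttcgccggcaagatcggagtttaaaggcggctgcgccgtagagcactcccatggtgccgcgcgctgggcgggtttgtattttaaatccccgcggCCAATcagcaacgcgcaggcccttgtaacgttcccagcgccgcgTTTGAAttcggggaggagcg
Aurka: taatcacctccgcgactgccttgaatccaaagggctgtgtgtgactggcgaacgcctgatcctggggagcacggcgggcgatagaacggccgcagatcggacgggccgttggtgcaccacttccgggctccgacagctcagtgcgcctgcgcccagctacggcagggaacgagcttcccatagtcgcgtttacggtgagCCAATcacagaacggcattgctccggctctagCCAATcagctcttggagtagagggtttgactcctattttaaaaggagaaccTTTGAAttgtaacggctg
Kif11: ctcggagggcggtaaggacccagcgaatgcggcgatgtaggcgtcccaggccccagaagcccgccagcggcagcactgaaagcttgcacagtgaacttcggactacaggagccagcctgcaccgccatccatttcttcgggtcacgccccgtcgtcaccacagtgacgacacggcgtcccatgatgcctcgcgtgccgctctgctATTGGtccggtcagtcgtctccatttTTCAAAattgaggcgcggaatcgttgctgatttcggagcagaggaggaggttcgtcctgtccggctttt
In Ttk the CCAAT matches begin at positions -65 and -28 from the start and the homology region at 7. In Aurka they begin at -51 and -19, with the homology region at 32. In Plk1 a single CCAAT match at -14 precedes the homology region at 30, and in Kif11 both lie upstream, at -45 and -19. In each of the 4 windows the homology region lay downstream of the CCAAT match or matches.

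All 38 genes read lower on array 3 than on arrays 1 and 2, whichever plasmid the clone carried. The array numbers are those in the sample titles, and nothing in the labels says what distinguishes number 3. Values are on the log2 scale of the deposited table, where a difference of 1 is 2-fold. The median difference of array 3 from the mean of arrays 1 and 2 was -1.10 in the vector clone and -1.81 in the clone with Ms4a8a, against -0.04 and -0.02 over all named genes. At least 2-fold lower were 25 of 38 genes in the vector clone (3.72% of all genes) and 37 of 38 in the Ms4a8a clone (4.35%), and 25 were so in both (2.80%). None was 2-fold higher in either clone, against 5.24% and 5.05% of all genes and 3.73% in both. Array 3 was the lowest of the 3 arrays in both clones for 38 of 38 genes, as it was for 33.1% of all genes. Number 3 is 1 array per clone and was set apart with its values known, so these differences are descriptions with no test.

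**Figure D1:**
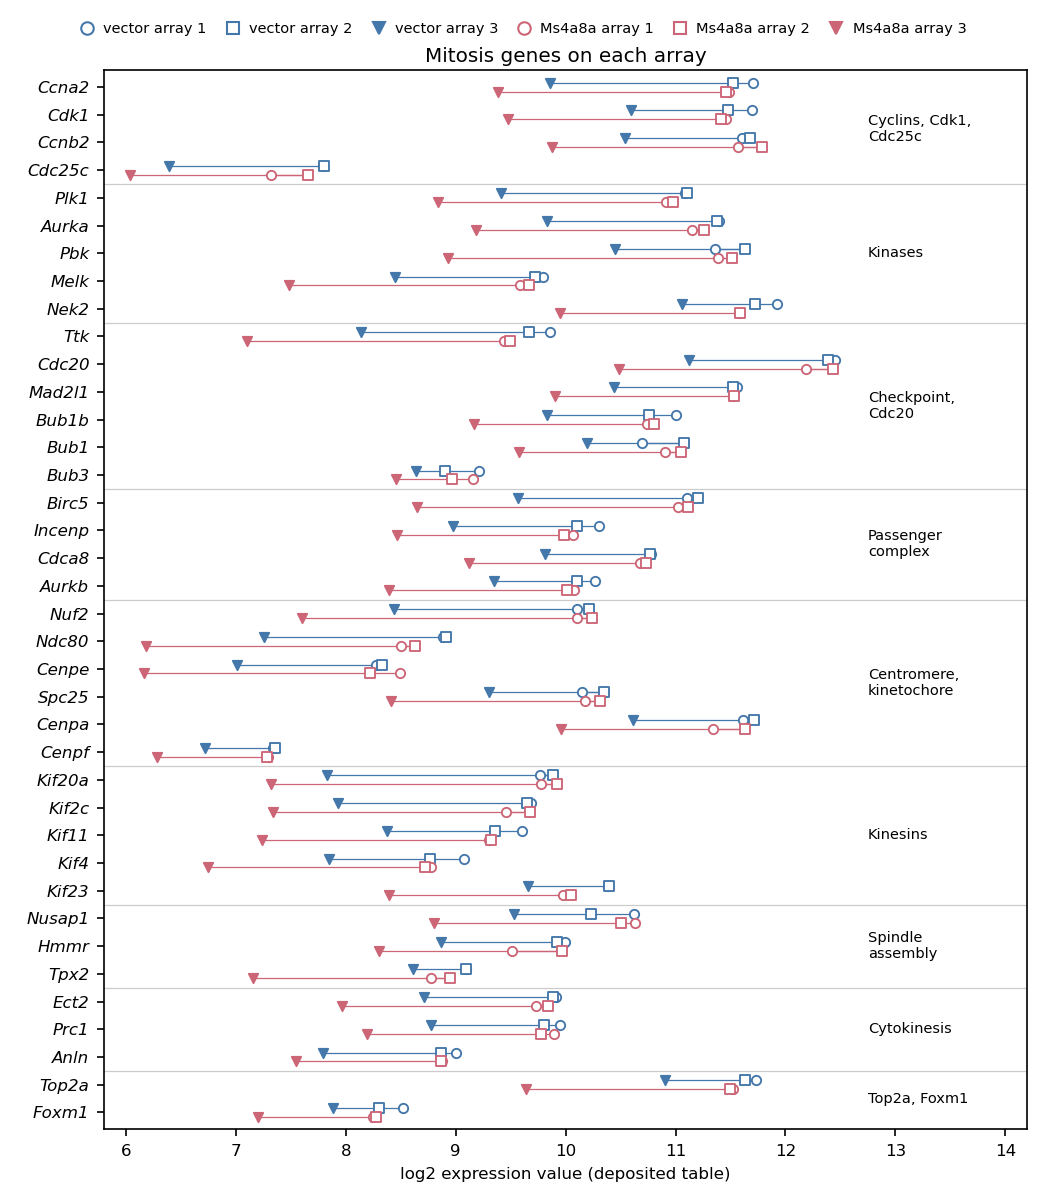
Deposited log2 value (horizontal axis) of each of the 38 mitosis genes (rows, grouped by role) on the 6 arrays. Blue marks the vector clone, red the Ms4a8a clone, open circles array 1, open squares array 2 and filled triangles array 3, and a thin line spans the arrays of a clone. The triangle lies left of the other symbols in every row, and the red triangle lies left of the blue one.

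The gap between arrays 1 and 2 of a clone shows how closely those 2 arrays agreed. It leaves out array 3, set apart with its values known, and so understates the spread over all 3 replicates. Over the 38 genes it had a median of 0.11 in the vector clone and 0.10 in the clone with Ms4a8a, with largest values of 0.39 and 0.46. The difference of array 3 exceeded that gap for all 38 genes in both clones. That count was not made over all genes and so does not set the 38 apart. The difference came closest to the gap in Bub3. There it was 1.36 times the gap in the vector clone and 3.13 times in the clone with Ms4a8a. All 38 genes also read above the table's median of 5.94 on every array. The lowest value was close to it, at 6.04 for Cdc25c on array 3 of the Ms4a8a clone. Of the measured lymphocyte markers, Cd3e read highest, up to 5.62, while Cd3d, Nkg7 and Ms4a1 read up to 4.54, 4.03 and 3.50. Whether low values such as that of Cdc25c compressed an array 3 difference was not tested.

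Among the cyclins and their kinase, Ccna2, the cyclin of S phase and G2, had the largest difference. It read 11.70, 11.52 and 9.86 on arrays 1, 2 and 3 of the vector clone and 11.49, 11.46 and 9.39 in the Ms4a8a clone. Array 3 was thus 3.37-fold and 4.25-fold below the mean of the others. Ccnb2, a B-type cyclin of mitosis, read 11.60, 11.68 and 10.54 in the vector clone and 11.57, 11.79 and 9.87 in the clone with Ms4a8a. For Cdk1, the kinase both bind, the values were 11.69, 11.48 and 10.59, then 11.46, 11.41 and 9.48. Its array 3 was 1.99-fold lower in the vector clone and 3.89-fold lower in the clone with Ms4a8a, so the clones differed more on array 3 than on arrays 1 and 2. Cdc25c, a phosphatase that activates Cdk1, had the smallest difference of this group on the mean of both clones, though not in the vector clone alone, at 7.79, 7.80 and 6.39 against 7.32, 7.66 and 6.04. It was 2.65-fold and 2.73-fold lower, the nearest to equal in both clones of any of the 38 genes.

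Of the mitotic kinases, Plk1, which acts in mitotic entry, centrosome maturation and cytokinesis, had the largest difference on the mean of both clones, while Pbk and Melk had larger ones in the Ms4a8a clone. It read 11.08, 11.11 and 9.41 in the vector clone, beside 10.91, 10.98 and 8.84 with Ms4a8a. Aurka, the centrosomal Aurora kinase, read 11.39, 11.38 and 9.83 and then 11.15, 11.26 and 9.19. Array 3 was 3.21-fold and 4.31-fold lower for Plk1 and 2.95-fold and 4.04-fold lower for Aurka. Nek2, a kinase of centrosome separation, had the smallest difference, from 11.92, 11.72 and 11.06 in the vector clone to 11.58, 11.59 and 9.95 in the Ms4a8a clone. Pbk, a mitotic kinase also called TOPK, was 2.07-fold lower in the vector clone and 5.73-fold lower in the clone with Ms4a8a, the widest gap between clones of the 38 genes (log2 -1.47). Melk, a kinase of the AMPK-related family, was 2.47-fold and 4.42-fold lower.

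The spindle checkpoint held both a large and the smallest difference. Ttk, the Mps1 kinase that starts checkpoint signalling and whose promoter is shown above, read 9.86, 9.66 and 8.14 in the vector clone and 9.44, 9.49 and 7.10 in the clone with Ms4a8a, or 3.08-fold and 5.17-fold lower on array 3. Cdc20, the activator of the anaphase-promoting complex and the target of the checkpoint, read 12.45, 12.39 and 11.12, and in the Ms4a8a clone 12.19, 12.43 and 10.49. Bub1, a kinetochore kinase, read 10.70, 11.08 and 10.19 and then 10.90, 11.05 and 9.57. Its relative Bub1b, which encodes BubR1 of the mitotic checkpoint complex, was 2.06-fold and 3.03-fold lower, and Mad2l1, the Cdc20 inhibitor Mad2, was 2.15-fold and 3.07-fold lower. Bub3, the scaffold that carries Bub1 and BubR1 to the kinetochore, read 9.21, 8.90 and 8.64 and 9.16, 8.97 and 8.46. At 1.34-fold and 1.52-fold it was the sole gene of the 38 that was not 2-fold lower in either clone.

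In the chromosomal passenger complex, Birc5, which encodes survivin, had the largest difference on array 3. It read 11.10, 11.21 and 9.57 in the vector clone and 11.03, 11.12 and 8.65 in the clone with Ms4a8a, 3.00-fold and 5.35-fold lower. The kinase of the complex, Aurkb, had the smallest difference there in the vector clone, but not in the Ms4a8a clone, with 10.27, 10.11 and 9.34 against 10.08, 10.02 and 8.39 (1.79-fold and 3.15-fold lower). The scaffold Incenp was 2.34-fold and 2.95-fold lower and the borealin gene Cdca8 1.94-fold and 3.00-fold. All 4 subunits thus read lower on array 3 of both clones, by different amounts.

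At the centromere and kinetochore, the microtubule-binding Ndc80 complex was represented by 3 subunits. Nuf2 read 10.10, 10.21 and 8.44 with the empty vector and 10.11, 10.24 and 7.60 with Ms4a8a, 3.28-fold and 5.95-fold lower on array 3. Ndc80 was 3.12-fold and 5.20-fold lower and Spc25 1.93-fold and 3.57-fold lower. Cenpe, a kinetochore kinesin, was 2.46-fold and 4.55-fold lower, and Cenpa, the histone H3 variant that marks centromeres, 2.07-fold and 2.87-fold. Cenpf, a large kinetochore protein, had the smallest difference, with 7.34, 7.36 and 6.71 in the vector clone and 7.29, 7.28 and 6.28 in the clone with Ms4a8a.

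Among the kinesins, Kif20a, a motor of the central spindle, had the largest mean difference of all 38 genes. It read 9.77, 9.89 and 7.83 in the vector clone and 9.78, 9.92 and 7.32 in the clone with Ms4a8a, which ranked 37 and 53 from the lowest array 3 difference of all named genes. On arrays 1 and 2 its clones differed by 0.01 and 0.04. Kif2c, a microtubule depolymerase, was 3.34-fold and 4.66-fold lower, and Kif11, the motor that pushes spindle poles apart, 2.15-fold and 4.21-fold. The chromokinesin Kif4 read 9.07, 8.77 and 7.85 and then 8.78, 8.72 and 6.75. Kif23, the centralspindlin motor, read 10.38, 10.39 and 9.66 and 9.98, 10.05 and 8.39. It was the lower in the Ms4a8a clone at all 3 numbers, by 0.40, 0.34 and 1.26.

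Spindle assembly and cytokinesis genes followed the same order of arrays. Tpx2, an activator of Aurora A on the spindle, read 9.09, 9.09 and 8.61 with the empty vector and 8.78, 8.95 and 7.16 with Ms4a8a. It had the smallest difference of array 3 in its group in the vector clone (1.40-fold) beside 3.26-fold in the Ms4a8a clone. Nusap1, a microtubule-bundling protein, read 10.62, 10.23 and 9.53 and then 10.63, 10.50 and 8.80. Hmmr, a spindle protein also known as a hyaluronan receptor, was 2.13-fold and 2.71-fold lower. Ect2, the exchange factor that activates RhoA at the cleavage furrow, read 9.91, 9.89 and 8.71 and 9.73, 9.84 and 7.97. Anln, the ring scaffold anillin, read 9.01, 8.87 and 7.79 and 8.87, 8.86 and 7.55, so that array 3 was lower by 2.21-fold and 2.49-fold, while the midzone bundler Prc1 was lower by 2.15-fold and 3.13-fold. Top2a, which untangles sister DNA, read 11.73, 11.63 and 10.90 in the vector clone and 11.52, 11.50 and 9.64 in the clone with Ms4a8a. Foxm1, the transcription factor of late cell cycle genes, read 8.52, 8.30 and 7.89 and 8.25, 8.28 and 7.20, lower by 1.43-fold and 2.09-fold.

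The genes kept much of their order between clones. Across the 38 genes the array 3 differences of the clones had a Pearson correlation of 0.75 and a Spearman correlation of 0.66, beside a Pearson correlation of 0.86 over all named genes. Genes are not independent replicates, and each clone contributes 1 array number 3. Among the 500 named genes with the most negative difference were 21 of the 38 in the vector clone and 35 in the clone with Ms4a8a. For all 38 genes the difference was the larger in the Ms4a8a clone, by a median of 0.67 log2 (range 0.04 in Cdc25c to 1.47 in Pbk), where 47.9% of all genes and 68.2% of the 459 genes at least 2-fold lower in both clones had the more negative value in that clone. The excess rests on 1 array of each clone and was not tested.

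**Figure D2:**
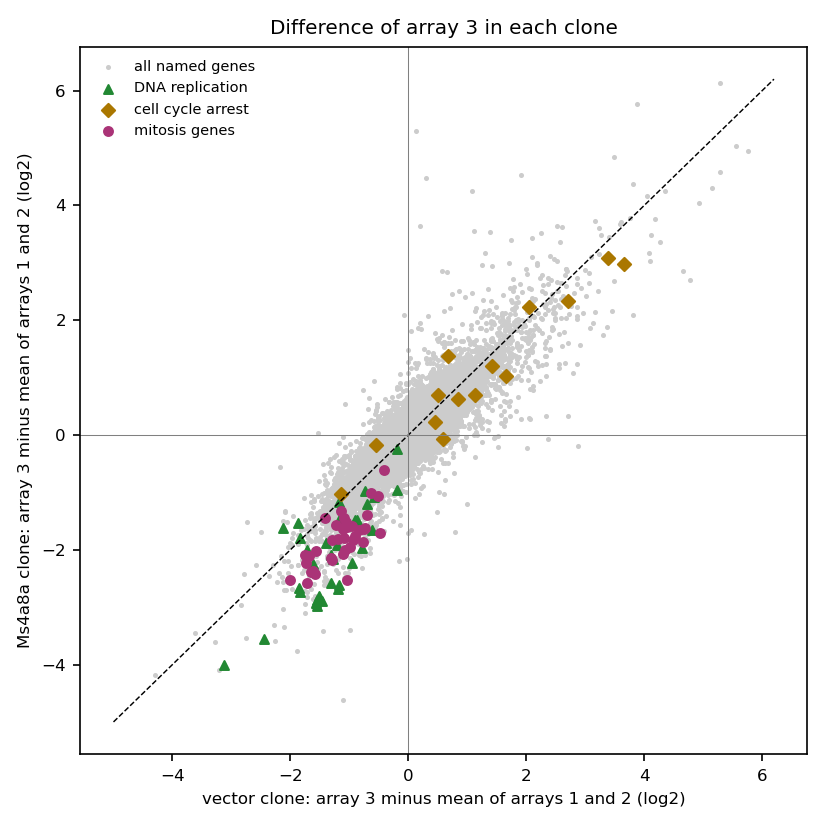
Array 3 minus the mean of arrays 1 and 2 (log2) in the vector clone (horizontal) and the Ms4a8a clone (vertical) for all 16387 named genes (grey), the 38 mitosis genes (purple), 33 DNA replication genes (green) and 14 cell cycle arrest genes (brown). The dashed line marks equal differences, and all 38 mitosis genes lie below it and below 0 in both clones.

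Some other readings also moved with number 3, and some did not. The difference between the 3′ and 5′ control sets of Actb was 0.17, 0.17 and 0.62 on arrays 1, 2 and 3 of the vector clone, beside 0.13, 0.17 and 0.45 with Ms4a8a. That of the transferrin receptor was 0.83, 0.86 and 1.39 and 0.90, 0.90 and 1.46, and that of pyruvate carboxylase 0.47, 0.50 and 0.91 and 0.33, 0.37 and 0.86. For Gapdh it was -0.18, -0.17 and -0.12 and -0.19, -0.16 and -0.06. Array 3 thus had the highest value of its clone in all 4 controls. The 12 labelling control sets had medians of 7.26, 7.44 and 7.20 in the vector clone and 7.34, 7.54 and 8.04 in the clone with Ms4a8a. Of 10 macrophage markers, 8 read above the table's median on all arrays and Mertk read below it on all. Of the 10, 3 were at least 2-fold higher on array 3 in both clones, namely Adgre1, Itgam and Fcgr3 (3.73% of all genes). Fcgr3 was 5.56 and 5.03 log2 higher in the vector and Ms4a8a clones, ranking 16386 and 16384 from the lowest of the 16387 named genes. The summed log2 level of the macrophage list ran from 99.7 to 112.0 in the vector clone and from 99.9 to 112.3 in the Ms4a8a clone. The 4 measured lymphocyte markers (sums of 16.9 to 17.5 and 17.0 to 17.3) and 8 fibroblast and epithelial markers (29.0 to 29.7 and 29.2 to 30.0) read below the median on all arrays. The part of RNA integrity and labelling in the mitosis gene values was not tested. In such bulk RNA, fewer dividing cells and less transcript per dividing cell cannot be told apart.

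Against the other genes of cell division, chosen by list, the lower readings on array 3 were shared by most lists, but not by every gene. Of 33 other kinetochore genes, 9 were at least 2-fold lower in both clones (2.80% of all genes), with medians of -0.75 and -1.53 in the vector and Ms4a8a clones. Spc24, the remaining Ndc80 complex subunit, had the largest difference at -2.12 and -3.04, and the microtubule coupler Ska2 followed at -1.80 and -2.40. Among 32 other spindle and kinesin genes 10 were 2-fold lower in both clones (medians -0.67 and -1.14), with the spindle protein Tacc3 at -1.53 and -2.34 and the centriole kinase Plk4 at -1.43 and -2.55, and 1 was 2-fold higher. In the condensin and cohesin list, 2 of 19 were so in both clones (medians -0.80 and -1.20), with the condensin subunits Smc2 at -1.40 and -2.60 and Ncapg at -1.81 and -2.74. Of 7 other cytokinesis genes 3 were so, among them Shcbp1, a midbody protein (-1.72 and -2.82), and Depdc1b (-1.24 and -2.01).

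The anaphase-promoting complex differed least among the machinery lists in the Ms4a8a clone. Its 17 measured genes had medians of -0.57 and -0.58, and 6 were at least 2-fold lower in both clones (2.80% of all genes). On the mean of both clones, the largest differences in that list were in Fbxo5, the inhibitor Emi1 (-1.73 and -2.73), and Trip13, the ATPase that recycles Mad2 (-1.55 and -2.22), which regulate the complex or its checkpoint and are not subunits. The core subunit Cdc16 read 0.17 and 0.20 higher. Of 11 regulators of Cdk1, 3 were 2-fold lower in both clones (medians -0.18 and -0.75), including Wee1, the inhibitory kinase (-1.21 and -1.85), and the F-box cyclin Ccnf (-1.39 and -1.67). Of 17 MuvB, Myb and E2F genes, 6 were 2-fold lower in both (medians -0.60 and -0.94), led by the atypical repressors E2f8 (-2.28 and -3.30) and E2f7 (-1.97 and -2.69), while Rb1, the retinoblastoma gene, was 1.63 and 1.70 higher.

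DNA replication genes, which act before mitosis, differed at least as much. Of 33 measured, 23 were at least 2-fold lower in both clones (2.80% of all genes), with medians of -1.31 and -2.01. Ccne2, a cyclin of the G1 to S transition, had values of -3.12 and -4.00 and the thymidine kinase gene Tk1 values of -2.45 and -3.56. Lower readings on array 3 were thus not limited to the mitosis genes. Cell cycle arrest genes went the other way, with medians of 0.99 and 0.86 and with 6 of 14 at least 2-fold higher in both clones (3.73% of all genes). Btg1, an antiproliferative gene, read 5.37, 4.69 and 8.69 in the vector clone and 6.12, 5.58 and 8.83 in the clone with Ms4a8a, and the p53 target Trp53inp1 read 5.12, 4.62 and 8.26 and 4.99, 4.38 and 7.77. The kinase inhibitor Cdkn2c went against its list, 1.13 and 1.03 lower on array 3.

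**Figure D3:**
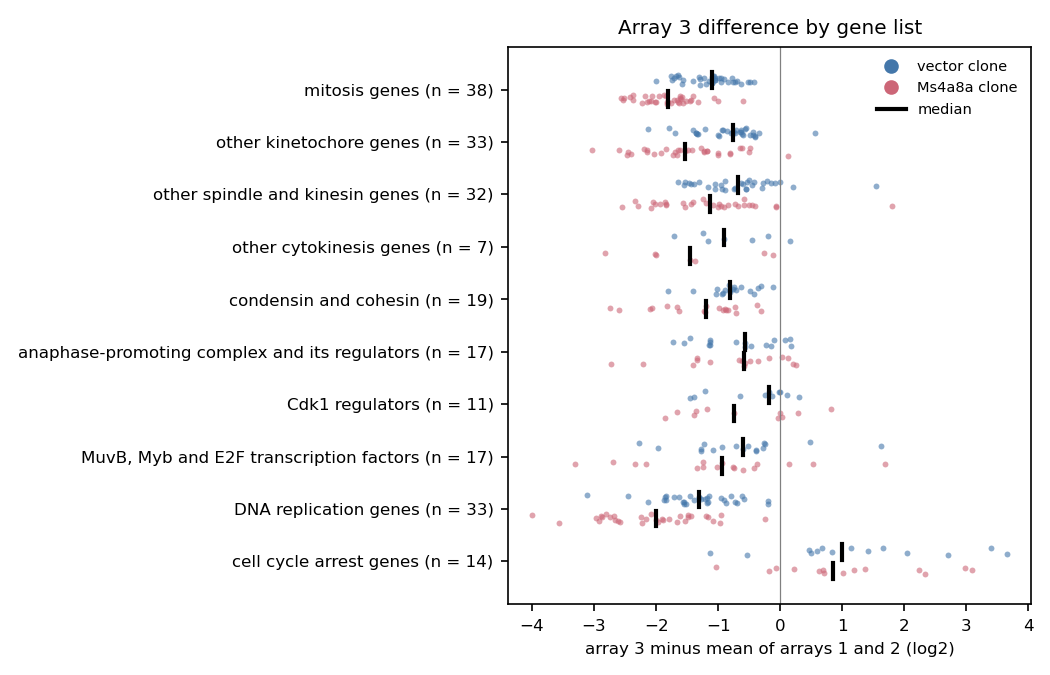
Array 3 minus the mean of arrays 1 and 2 (log2, horizontal axis) for each gene of the 38 mitosis genes and of the related lists (rows), in the vector clone (blue) and the Ms4a8a clone (red). Black bars mark medians, which are -1.10 and -1.81 for the mitosis genes, -1.31 and -2.01 for DNA replication genes and 0.99 and 0.86 for cell cycle arrest genes.

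The comparison of the clones asks how a clone carrying Ms4a8a differs from the vector clone, and by this measure none of the 38 genes passed. In limma over all 16387 genes, 0 of 38 had an adjusted p under 0.05, against 0.0427% of all genes in either direction and 0.0244% lower in the Ms4a8a clone, and 0 had an unadjusted p under 0.05, against 3.20%. With the replicate number as a block, again 0 of 38 passed (0.909% of all genes, 0.452% lower), and 12 of 38 had an unadjusted p under 0.05, all 12 lower in the Ms4a8a clone, against 13.3% of all genes in either direction and 6.30% lower. The lowest adjusted p with the block was 0.203, for Ndc80. All 38 fitted differences were negative, their median being -0.31, from -0.67 in Kif23 to -0.06 in Bub3, where 51.6% of all genes were negative and their median was -0.005. The median of the 38 turned to 0.27 without Ms4a8a array 3. That fit has no block and keeps the lower array 3 of the vector clone, so the turn does not isolate the clone difference. Without both arrays of number 3, again with no block, 31 of 38 differences were negative and their median was -0.125. It was -0.75 without vector array 3, -0.59 and -0.66 without Ms4a8a arrays 1 and 2, and -0.12 and -0.11 without vector arrays 1 and 2. With array weights it was -0.16, and 33 of 38 differences were negative.

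Standard errors were smaller with the replicate number as a block. For these genes the numbers differed mainly through array 3, and the block does not separate number 3 from the others. Standard errors of the 38 differences ran from 0.23 to 0.90 without the block and from 0.08 to 0.29 with it. Kif23 had means of 10.14 ± 0.42 with the empty vector and 9.47 ± 0.94 with Ms4a8a (SD, n = 3 each), and differed by -0.67 with a blocked 95% interval from -1.12 to -0.21 (limma blocked adjusted p = 0.208). For Ndc80 the means were 8.35 ± 0.95 and 7.77 ± 1.38 (SD, n = 3 each), with an interval from -0.97 to -0.19. Tpx2, at 8.93 ± 0.28 and 8.29 ± 0.99 (SD, n = 3 each), had a difference of -0.64 and an interval from -1.24 to -0.03. The other 9 genes with blocked intervals below 0 were Cdc25c, Ttk, Aurka, Incenp, Cenpa, Nek2, Plk1, Hmmr and Ccna2. Intervals are per gene and not adjusted for the number of genes. For Bub3 the interval ran from -0.26 to 0.15, and for Pbk, the widest of the 38, from -1.26 to 0.18, which holds both a 2-fold lower level and no difference.

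**Figure D4:**
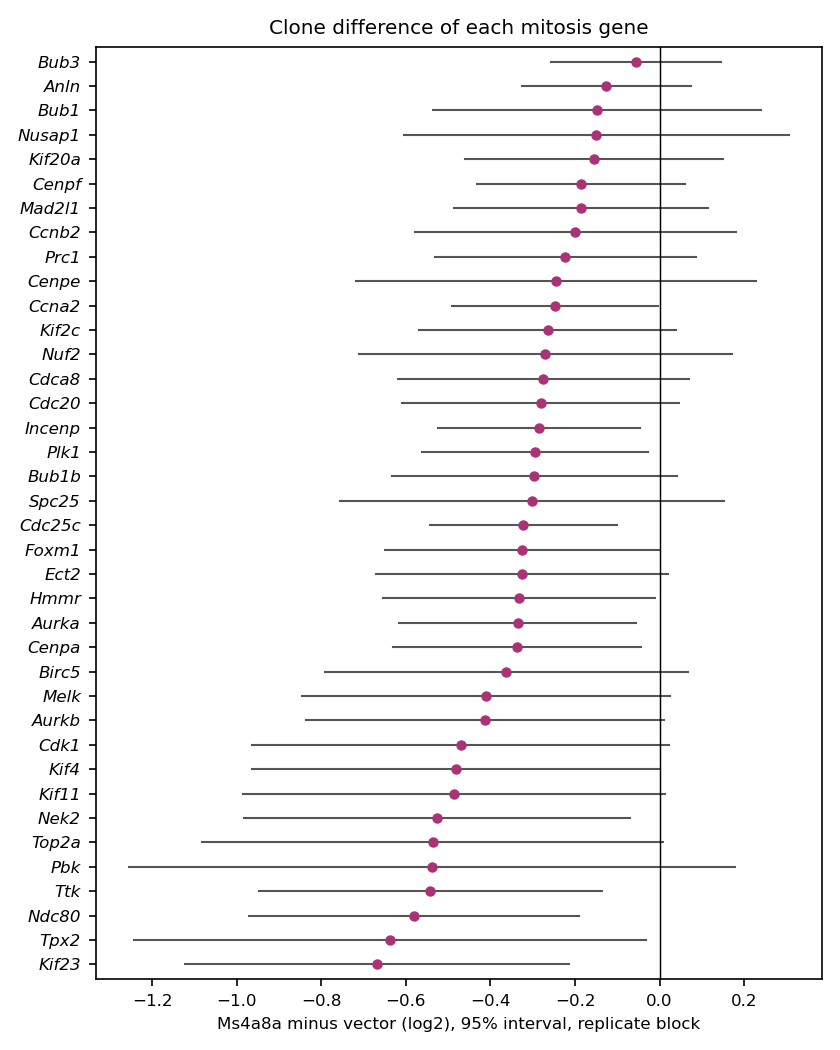
Fitted Ms4a8a minus vector difference (log2, horizontal axis) of each of the 38 mitosis genes with its 95% interval from the blocked limma model, unadjusted. Points are ordered by size, all lie below 0, and 12 intervals end below 0.

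Taken number by number, the clone difference was small on arrays 1 and 2 and larger on array 3. The median over the 38 genes of the Ms4a8a array minus the vector array of the same number was -0.21 at number 1, -0.05 at number 2 and -0.69 at number 3, beside -0.02, -0.01 and 0.01 over all genes. Negative were 31, 28 and 38 of the 38 genes, against 53.4%, 51.9% and 47.9% of all genes. At number 3, 10 of 38 genes were at least 2-fold lower in the Ms4a8a clone (1.29% of all genes), led by Pbk at -1.52 and Tpx2 at -1.45, with Kif23 and Top2a at -1.26 and -1.27. Ranges were -0.48 to 0.22 at number 1, -0.34 to 0.27 at number 2 and -1.52 to -0.18 at number 3. With 1 array per clone and number, no test was run on these differences.

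**Figure D5:**
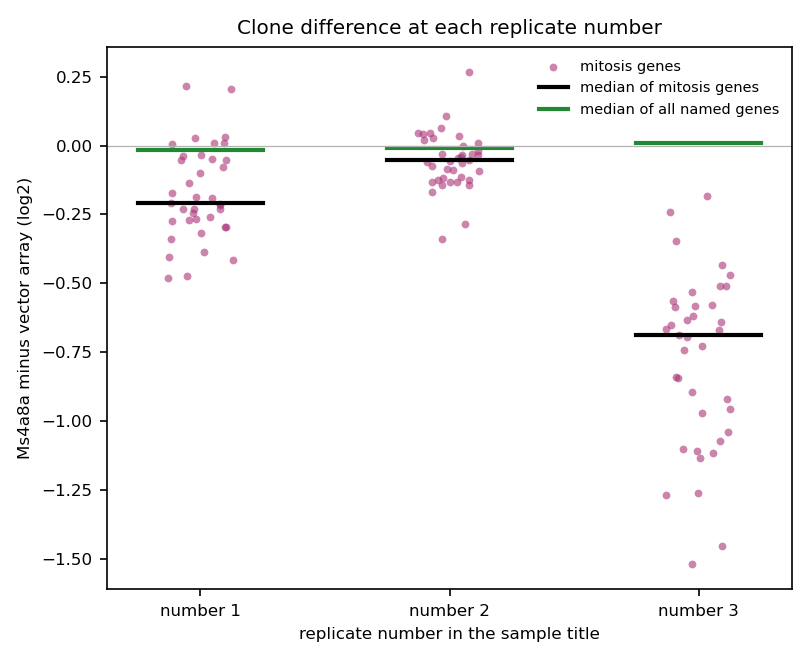
Ms4a8a array minus vector array of the same replicate number (log2, vertical axis) for the 38 mitosis genes (points) at numbers 1, 2 and 3, with the median of the mitosis genes (black bars) and of all named genes (green bars). The black bars lie at -0.21, -0.05 and -0.69, and all points at number 3 lie below 0.

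Without number 3, a refit chosen after the data were seen, the blocked model on 2 arrays per clone gave 31 of 38 negative differences with a median of -0.13, and 0 of 38 passed (2.65% of all genes, 1.07% lower). An unadjusted p under 0.05 was reached by 6 of 38, against 16.1% of all genes in either direction. All 6 were lower in the Ms4a8a clone, namely Cdc25c, Kif23, Tpx2, Ttk, Nek2 and Ndc80. For this refit the share of all genes lower at that threshold was not counted. Kif23 had the lowest adjusted p there (limma 0.0915, log2 difference -0.37). Of the 182 other cell cycle genes measured, 0 passed with all arrays, with or without the block. In limma, 3 and 44 of them had an unadjusted p under 0.05 without and with it (3.20% and 13.3% of all genes). The lowest blocked adjusted p among them was 0.0856, for Cdkn1b. Without number 3, Btg1 alone of them passed in the blocked model, 0.82 higher in the Ms4a8a clone (limma adjusted p = 0.00954).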

How the data were processed

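The authors deposited log2 expression values, 1 per probe set and array, for 6 arrays of biotin-labelled cRNA made from total RNA, per the labels' protocols. The log base was taken as log2 from the range of 2.24 to 14.6. The 6 deposited columns held the same sorted values, as quantile normalisation gives. For the summary method, background correction and build, the sources used here give nothing. All columns were used and no scaling or filter was added. Probe sets, 1 per gene, were named from the platform annotation, with symbols updated to RefSeq GRCm38.p6 for the 16358 of 16387 genes found there. Members and lists were chosen with earlier results of these data known.

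Clones were compared with limma 3.58.1 in R 4.3.3 (lmFit, eBayes, two-sided, Benjamini-Hochberg over all 16387 genes, threshold 0.05) without a block and with the replicate number as a block, and the fits were tested on simulated data. Same-numbered arrays deviated together, with correlations of 0.709, 0.809 and 0.865, and the source names pair them alike. Vector array 1 correlated at 0.713 with Ms4a8a array 2, no less than with its own number. The numbers were treated as pairs because the titles and source names pair them. The correlations match number 3 across clones but do not settle the pairing of numbers 1 and 2. Nothing says that arrays came from separate cultures, so p-values measure the spread between arrays, which may be technical. The number of arrays limits the precision. Values on every array are given for the extremes of each role group and for a fixed set of central genes, and of the related lists for the 2 genes with the largest array 3 difference. Cdc16, Rb1, Cdkn2c and Cdkn1b were named after their values were seen.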

Additional observations from a re-analysis of the deposited data

How the results depend on the processing

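In limma, 0 of the 38 genes passed in the clone comparison under any setting run, over the 6 arrays left out in turn, array weights, a trended prior, filters at the 25th percentile and the median, both control scalings, and the replicate block with and without each number. An unadjusted p under 0.05 was reached by 12 of 38 with the replicate block (13.3% of all genes). With the block and without number 1, 2 or 3 it was reached by 16, 24 and 6 (9.54%, 10.3% and 16.1%). It was reached by 5 without number 3 and no block (12.3%) and by 2 with labelling control scaling (2.48%). In the other settings 0 reached it, against 1.24% to 12.6% of the genes tested. The median clone difference of the 38 genes was -0.31, the same with the replicate block, ran from -0.75 to 0.27 over the arrays left out, and was -0.65 with labelling control scaling, which moves all genes by -0.34, and -0.16 with array weights, where 33 of 38 differences were negative. Over all genes, 7 were called without a block and 149 with the replicate block, which were 434, 101 and 104 with the block and without both arrays of number 3, 1 or 2. The count was 147 without number 3 and without a block, 47 with array weights, 13 and 30 with hybridisation and labelling control scaling, 1 when genes under the median level were left out, and 0 to 8 over the arrays left out. The array 3 difference kept its sign in all 38 genes of both clones under every alternative run. Its median in the vector clone was -1.27 and -0.95 with hybridisation and labelling control scaling (all genes -0.21 and 0.11), and -1.17 and -1.08 without array 2 and array 1. In the Ms4a8a clone it was -2.15 and -2.41 (all genes -0.36 and -0.62). At least 2-fold lower in the vector clone were 15 of 38 with labelling control scaling (2.51% of all genes). The median clone difference at number 2 was 0.11 with hybridisation control scaling (all genes 0.15), and at number 3 it was -1.53 with labelling control scaling (all genes -0.83). The cause of these shifts was not tested. The labelling control scaling and the blocked refits without a number were chosen after the data were seen. No read depth applies to arrays, and all 38 genes read above the table's median.

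Leaving out 1 array turned the sign of the clone difference in 36 of the 38 genes, in each of them without Ms4a8a array 3, and without vector array 1 in 7 and vector array 2 in 6. The exceptions were Kif23 and Tpx2. Sign turns were not counted over all genes, so these counts do not set the 38 genes apart. The fits with 1 array left out have no block and leave the replicate numbers unequal between clones. Because array 3 was lower in both clones, leaving out 1 of them moves the difference by itself. Without both arrays of number 3 and with no block, 31 of 38 differences were negative. The log2 ranges over the arrays left out were Top2a -0.85 to 0.086, Ccna2 -0.83 to 0.45, Ccnb2 -0.56 to 0.40, Cdk1 -0.81 to 0.18, Cdc20 -0.71 to 0.33, Cdc25c -0.79 to 0.16, Plk1 -0.85 to 0.41, Aurka -0.86 to 0.34, Aurkb -0.70 to 0.14, Bub1 -0.42 to 0.32, Bub1b -0.64 to 0.24, Bub3 -0.21 to 0.14, Birc5 -0.89 to 0.44, Foxm1 -0.51 to 0.029, Cenpa -0.69 to 0.17, Cenpe -0.68 to 0.48, Cenpf -0.40 to 0.15, Kif11 -0.86 to 0.20, Kif20a -0.82 to 0.69, Kif2c -0.84 to 0.48, Kif4 -0.84 to 0.19, Nusap1 -0.48 to 0.44, Ttk -1.08 to 0.25, Mad2l1 -0.55 to 0.35, Nek2 -0.80 to 0.018, Incenp -0.69 to 0.23, Cdca8 -0.59 to 0.25, Ndc80 -1.13 to 0.21, Nuf2 -0.84 to 0.59, Spc25 -0.64 to 0.31, Prc1 -0.59 to 0.33, Anln -0.51 to 0.31, Ect2 -0.72 to 0.28, Hmmr -0.69 to 0.15, Pbk -0.99 to 0.30, Melk -0.85 to 0.30.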
